A study of Mus musculus and synthetic construct with 15 samples.

Results

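The regions described here are the 8 of 3820 in a mouse heart enhancer screen whose midpoint has Csrp3, Ldb3 or Rbm20 as its nearest protein-coding gene. Distance was taken to the gene body in the RefSeq annotation of GRCm38, the build also called mm10, within 100 kb. Csrp3 has 4 such regions, Ldb3 has 1 and Rbm20 has 3. The regions of each gene were found by position alone, although the 3 genes were chosen with earlier results of these data known, and a nearest gene is not shown to be the gene that a region acts on.

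The screen was a massively parallel reporter assay, in which many candidate sequences are tested at once by setting the RNA made from each against its DNA. Its 3 groups of 5 libraries are RNA from atria of wild-type mice, RNA from ventricles of wild-type mice and DNA of the AAV9 pool, an adeno-associated virus that infects heart muscle well. The pool was given to pups on postnatal day 0 and both tissues were taken on day 7. Each region is 400 bp long, and the labels give cardiomyocytes as the cell type of both tissues. The labels do not say whether a replicate is 1 animal or a pool, so p-values measure the spread between these libraries, which may be technical. The counts hold only reporter sequences, so the tissue labels could not be set against marker genes.

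Total counts were 877773 to 1271527 in the replicate 1 RNA libraries, 1718563 to 3781726 in the other RNA libraries and 2312820 to 2958271 in DNA. The replicate 1 RNA libraries of both chambers stand apart. The 488 regions with 0 counts in every DNA library held 0.0162% to 0.0197% of their counts, against 3.34% to 4.20% in replicates 2 to 5. Replicate 1 is therefore given apart from replicates 2 to 5 beside each result, while means and fits of 5 libraries a group include it, and the values below are counts per 1000000 counts of the library (CPM). A count of 0 allows up to 3.42 CPM in atrial replicate 1, 2.36 CPM in ventricular replicate 1, 1.75 CPM in the other RNA libraries and 1.30 CPM in DNA, at 3 counts and for counting error only.

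The Z-disc is the border of the sarcomere, where actin thin filaments and the giant spring protein titin are anchored by alpha-actinin. Csrp3 encodes muscle LIM protein, a LIM-domain protein of heart and skeletal muscle linked to the Z-disc, and mice without it develop dilated cardiomyopathy. Ldb3 encodes Cypher, also called ZASP, a PDZ-LIM protein that binds alpha-actinin at the Z-disc. Rbm20 encodes an RNA-binding protein of muscle that represses the inclusion of titin exons, and so sets which titin lengths are made. Its other known target transcripts include Ldb3 itself.

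The Csrp3 regions lie around the gene's annotated start on chromosome 7, on the minus strand, and are named here by their distance from it. The -5.6 kb region (chr7:48853442-48853841) is upstream of the gene, 5590 bp from the start. The +2.7 kb (chr7:48845179-48845578), +5.6 kb (chr7:48842270-48842669) and +7.3 kb (chr7:48840509-48840908) regions are inside it. A second annotated start lies between the +2.7 kb and +5.6 kb regions, 1202 bp from the midpoint of the +5.6 kb region. The Ldb3 region (chr14:34573943-34574342) is inside the gene, 14539 bp downstream of an annotated start. The 3 Rbm20 regions are also inside their gene, and are named by their distance from its lower-coordinate end on chromosome 19. They are the 55.8 kb (chr19:53716554-53716953), 141.1 kb (chr19:53801883-53802282) and 162.1 kb (chr19:53822922-53823321) regions. Exons and introns were not told apart. No region overlaps another, and the closest pair, +5.6 kb and +7.3 kb at Csrp3, is 1361 bp apart.

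The Csrp3 start sites around which 4 of the 8 regions lie are shown by the 250 bases upstream of each, from RefSeq on GRCm38.p6, minus strand, 5′ to 3′. The first covers chr7:48848052-48848301 and the second chr7:48843672-48843921. Capitals mark E-boxes, the letters CANNTG, which read the same way on both strands and are the motif of basic helix-loop-helix factors.
First start: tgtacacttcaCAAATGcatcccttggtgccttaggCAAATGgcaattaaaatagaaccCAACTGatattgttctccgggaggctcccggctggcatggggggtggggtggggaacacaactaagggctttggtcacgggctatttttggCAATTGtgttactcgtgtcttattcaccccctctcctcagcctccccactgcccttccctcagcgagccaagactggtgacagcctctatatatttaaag
Second start: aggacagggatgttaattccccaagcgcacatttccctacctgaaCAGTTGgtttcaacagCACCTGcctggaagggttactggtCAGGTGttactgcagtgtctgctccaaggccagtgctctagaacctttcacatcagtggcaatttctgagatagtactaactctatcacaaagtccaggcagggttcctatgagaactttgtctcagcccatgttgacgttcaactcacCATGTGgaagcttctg
Each stretch holds 4 E-boxes. Of 32851 RefSeq promoter stretches of this length, 66.2% hold at least 1, and the share that hold 4 was not counted. On either strand, AAGTG (the core of NKX2-5 sites, held by 40.7% of all stretches) occurs 1 time before the first start, outside the E-boxes, and not before the second. Neither stretch holds AGATAA, a longer form of the GATA-factor site (held by 9.99% of all stretches), or the core of TEAD sites searched as GGAATG (12.6%). The shorter letters GATA were not searched, and they do occur in both stretches. The TATA-box letters TATAAA, held by 12.4%, are in neither. Other forms of the TATA box were not searched, and the letters TATATA do occur near the end of the first stretch. No match says only that these letters are not in these stretches. None of the 8 tested regions overlaps these stretches, and the regions' own sequences were not used here.

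The identifiers of the regions carry tags that are used as given. All 4 Csrp3 regions carry GeneAVB, and the +5.6 kb region carries aMTF+p300 as well. The Ldb3 and Rbm20 141.1 kb regions carry vMTF+p300, and the Rbm20 55.8 kb region carries vMTF-p300. The Rbm20 162.1 kb region carries p300AVB. In the table's column of region groups, 5 of the 8 are in "MTF or P300", 2 in TF1-2 and 1 in TF3-4.

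Of the 8 regions, 4 gave RNA above DNA in all 5 replicates of each chamber, and 4 did not. Csrp3 +5.6 kb, Csrp3 +7.3 kb, Ldb3 and Rbm20 55.8 kb had every RNA library above every DNA library. The share of all regions that did so in both chambers was not counted. Among the 2601 regions with enough DNA to be tested, 35.8% did so in atrium and 40.8% in ventricle, each chamber taken alone. Rbm20 55.8 kb is not among these 2601. Csrp3 -5.6 kb, Csrp3 +2.7 kb and Rbm20 162.1 kb had 0 counts in both replicate 1 RNA libraries and RNA in all 8 others. Rbm20 141.1 kb was at the DNA level in replicate 1 and was among the most abundant RNAs of the whole pool in replicates 2 to 5.

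**Figure D1:**
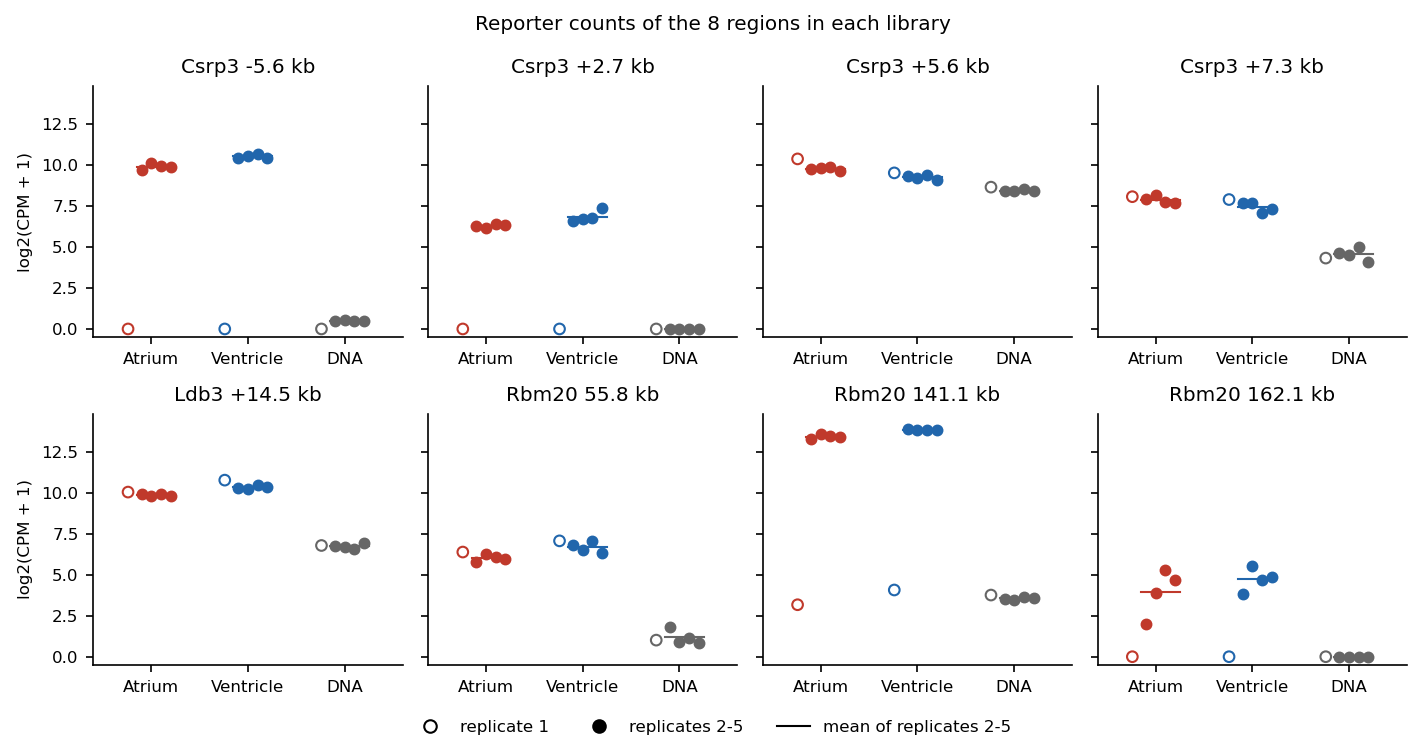
Level of each of the 8 regions in each library, as log2(CPM + 1), for atrial RNA, ventricular RNA and AAV DNA. Open circles are replicate 1, filled circles replicates 2 to 5 and lines the mean of replicates 2 to 5. Csrp3 -5.6 kb, Csrp3 +2.7 kb and Rbm20 162.1 kb are at 0 in both replicate 1 RNA libraries, and Rbm20 141.1 kb is at the level of DNA there.

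The question of RNA over DNA is which sequences gave more reporter RNA than their share of the virus. Tests were limited to regions averaging 10 or more DNA counts, which 2601 regions and 4 of the 8 described here did (Csrp3 +5.6 kb and +7.3 kb, Ldb3, and Rbm20 141.1 kb). All 4 were higher in RNA than in DNA in atrium and all 4 in ventricle (edgeR's quasi-likelihood test, adjusted p under 0.05 over the 2601). Of all regions tested, 38.4% were called higher than DNA in atrium and 43.4% in ventricle. The median log2 RNA over DNA of the 4 was 2.94 in atrium and 3.15 in ventricle, against 0.04 and 0.13 over all regions. Every atrial RNA library lay above every DNA library in 3 of the 4, as in 35.8% of all tested regions, and every ventricular one in 4 of the 4, as in 40.8%. The exception in atrium was Rbm20 141.1 kb, through replicate 1.

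Csrp3 +5.6 kb was the most abundant of the 8 in the virus and had the smallest fitted ratio over DNA of the 4 tested. Its atrial RNA was 1312, 861, 892, 916 and 776 CPM and its ventricular RNA 727, 643, 582, 669.5 and 527 CPM in replicates 1 to 5, against 398, 339.5, 333, 369 and 334 CPM in DNA. All 10 RNA libraries lay above the 5 DNA libraries, and atrial replicate 1 was the highest. The fitted log2 ratio over DNA was 1.08 ± 0.11 in atrium (SE, n = 5 each; edgeR adjusted p = 8.27e-07) and 0.61 ± 0.08 in ventricle (edgeR adjusted p = 4.75e-06). Over DNA, its pooled CPM ratio in replicates 2 to 5 was 2.43 in atrium and 1.70 in ventricle, above the medians of 0.782 and 0.714 for the 1177 regions averaging 300 or more DNA counts. In replicate 1 the ratios were 3.68 and 2.04.

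Csrp3 +7.3 kb had less DNA and a larger excess of RNA. It gave 265, 236, 289, 209.5 and 202 CPM in atrial RNA and 235, 204, 204, 134 and 158 CPM in ventricular RNA, against 18.9, 24.02, 22.1, 30.8 and 16.01 CPM in DNA. RNA and DNA did not overlap, and replicate 1 lay within the range of the others in atrium and was the highest in ventricle. The log2 ratio over DNA was 3.09 ± 0.19 in atrium (edgeR adjusted p = 5.04e-09) and 2.84 ± 0.19 in ventricle (edgeR adjusted p = 3.82e-10). The pooled ratio in replicates 2 to 5 was 10.7 (95% exact counting interval 9.44 to 12.2) in atrium and 7.81 (6.90 to 8.87) in ventricle, and in replicate 1 it was 11.99 and 10.6. Counting intervals, here and below, hold counting error only and leave out the spread between libraries, so they are too narrow. The medians of the 854 regions averaging 10 to under 100 DNA counts were 2.90 and 3.08 in replicates 2 to 5.

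The Ldb3 region gave a strong and even signal in both chambers. Its RNA was 1044, 944, 866, 953 and 889.8 CPM in atrium and 1729, 1236, 1200.0, 1429.8 and 1275 CPM in ventricle, against 109, 107, 102, 92.8 and 123 CPM in DNA. No RNA library overlapped DNA, and ventricular replicate 1 was the highest. The log2 ratio over DNA was 2.80 ± 0.10 in atrium (edgeR adjusted p = 2.17e-11) and 3.46 ± 0.11 in ventricle (edgeR adjusted p = 2.63e-14). By pooled CPM the ratio was 8.52 (8.04 to 9.03) in atrial replicates 2 to 5 and 9.75 in atrial replicate 1, 12.1 (11.4 to 12.8) in ventricular replicates 2 to 5 and 16.2 in ventricular replicate 1. Within the 570 regions averaging 100 to under 300 DNA counts, it ranked 33 in atrium and 25 in ventricle in replicates 2 to 5, and 27 and 17 in replicate 1.

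Rbm20 55.8 kb had too little DNA for the filter, with 3, 6, 2, 3 and 2 counts in the 5 DNA libraries. Its RNA was seen in every library, at 82.0, 53.0, 74.3, 67.4 and 61.9 CPM in atrium and 132, 111, 89.3, 133 and 79.3 CPM in ventricle. Replicate 1 was the highest atrial value and close to the highest ventricular one. The pooled ratio over DNA was 51.7 (31.5 to 91.1) in atrial replicates 2 to 5 and 65.1 (37.5 to 119.8) in atrial replicate 1, 82.7 (50.7 to 145) in ventricular replicates 2 to 5 and 105 (62.7 to 188) in ventricular replicate 1. The wide intervals come from 16 DNA counts. In replicates 2 to 5 the ratios are log2 5.69 in atrium and 6.37 in ventricle. Regions averaging above 0 and under 10 DNA counts had median log2 ratios of 5.07 and 5.29 there, leaving out those with no RNA. Without the DNA filter it was called higher than DNA in atrium, at a log2 ratio of 5.22 ± 0.35 (edgeR adjusted p = 2.89e-07), and in ventricle, at 5.93 ± 0.32 (edgeR adjusted p = 4.88e-08). In those fits 50.6% of all regions were called higher in atrium and 53.7% in ventricle.

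Rbm20 141.1 kb carried the largest RNA signal at the 3 loci, and replicate 1 did not show it. Its atrial RNA was 7.97, 9955, 12002, 10983 and 10709 CPM and its ventricular RNA 15.7, 14799, 14509.7, 14595 and 14593 CPM, against 12.5, 10.6, 9.94, 11.7 and 10.9 CPM in DNA. Replicate 1 thus lay below every DNA library in atrium and just above them in ventricle, while replicates 2 to 5 were far above. In replicates 2 to 5 it was the RNA of rank 4 among all 3820 regions in atrium and of rank 2 in ventricle, and in replicate 1 of rank 2690 and 2550. The fitted log2 ratio over DNA was 9.30 ± 1.52 in atrium (edgeR adjusted p = 4.98e-04) and 9.85 ± 1.58 in ventricle (edgeR adjusted p = 3.75e-04). Without replicate 1 it was 9.73 ± 0.12 in atrium and 10.18 ± 0.11 in ventricle. In replicate 1 the CPM ratio over DNA was 0.713 in atrium (95% exact counting interval 0.281 to 1.51) and 1.41 in ventricle (0.833 to 2.25), both of which include 1. Of the 2601 tested regions it had the largest gap between replicates 2 to 5 and replicate 1 in each chamber, 10.25 in atrium and 9.77 in ventricle as a difference of log2(CPM + 1), against medians of -0.16 and -0.15.

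Csrp3 -5.6 kb was the most abundant RNA of the 4 Csrp3 regions in ventricular replicates 2 to 5. It had 0, 809, 1087, 987 and 936 CPM in atrial RNA and 0, 1356, 1506, 1642 and 1383 CPM in ventricular RNA, against 0, 1, 1, 1 and 1 counts in the DNA libraries. The pooled ratio of replicates 2 to 5 over DNA was 3069 (95% exact counting interval 1198 to 11267) in atrium and 4707 (1838 to 17278) in ventricle, from 4 DNA counts. By RNA level in replicates 2 to 5 it ranked 171 in atrium and 97 in ventricle of 3820 regions. With 0 counts in replicate 1, the ratio in these libraries has no value.

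Csrp3 +2.7 kb and Rbm20 162.1 kb had 0 counts in all 5 DNA libraries. Csrp3 +2.7 kb gave 0, 76.2, 71.3, 83.0 and 80.8 CPM in atrial RNA and 0, 95.4, 101, 106 and 164 CPM in ventricular RNA. Set against 3 counts over the pooled DNA libraries, replicates 2 to 5 were at least 328-fold higher in atrial RNA and at least 491-fold higher in ventricular RNA. Rbm20 162.1 kb was low and uneven, at 0, 2.91, 13.5, 37.1 and 24.7 CPM in atrial RNA and 0, 12.9, 44.9, 24.3 and 28.1 CPM in ventricular RNA. Its bounds on the same scale were at least 85.0-fold higher in atrium and at least 119-fold higher in ventricle. Among the 488 regions with no DNA count, the median level in replicates 2 to 5 was 31.6 CPM in atrium and 37.1 CPM in ventricle, so that Csrp3 +2.7 kb was above and Rbm20 162.1 kb below it in both chambers. Of these 488, 441 had 0 counts in atrial replicate 1 and 426 in ventricular replicate 1. Whether the DNA libraries hold the pool that replicates 2 to 5 received was not tested.

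**Figure D2:**
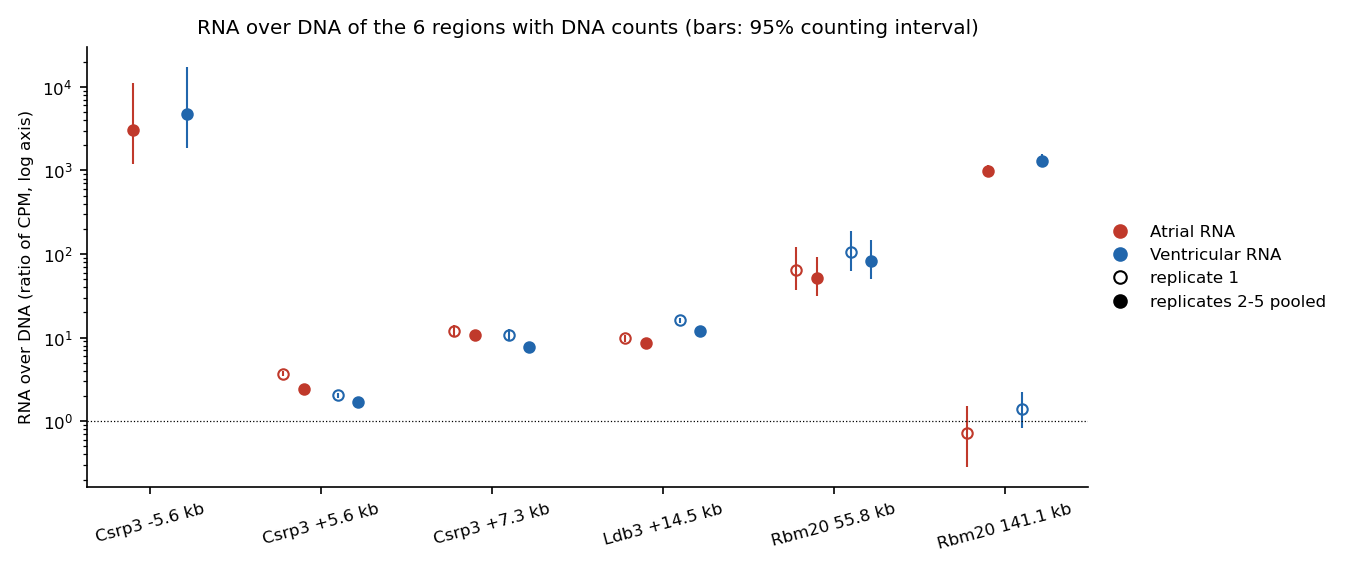
RNA over DNA of the 6 regions with any DNA count, as a ratio of CPM on a log axis, with 95% exact counting intervals. The intervals leave out the spread between libraries. Open circles are replicate 1 and filled circles are replicates 2 to 5 pooled. Replicate 1 and replicates 2 to 5 lie close together at Csrp3 +5.6 kb, Csrp3 +7.3 kb, Ldb3 and Rbm20 55.8 kb, but at Rbm20 141.1 kb the ratios in atrium are 0.713 and 983.

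**Figure D3:**
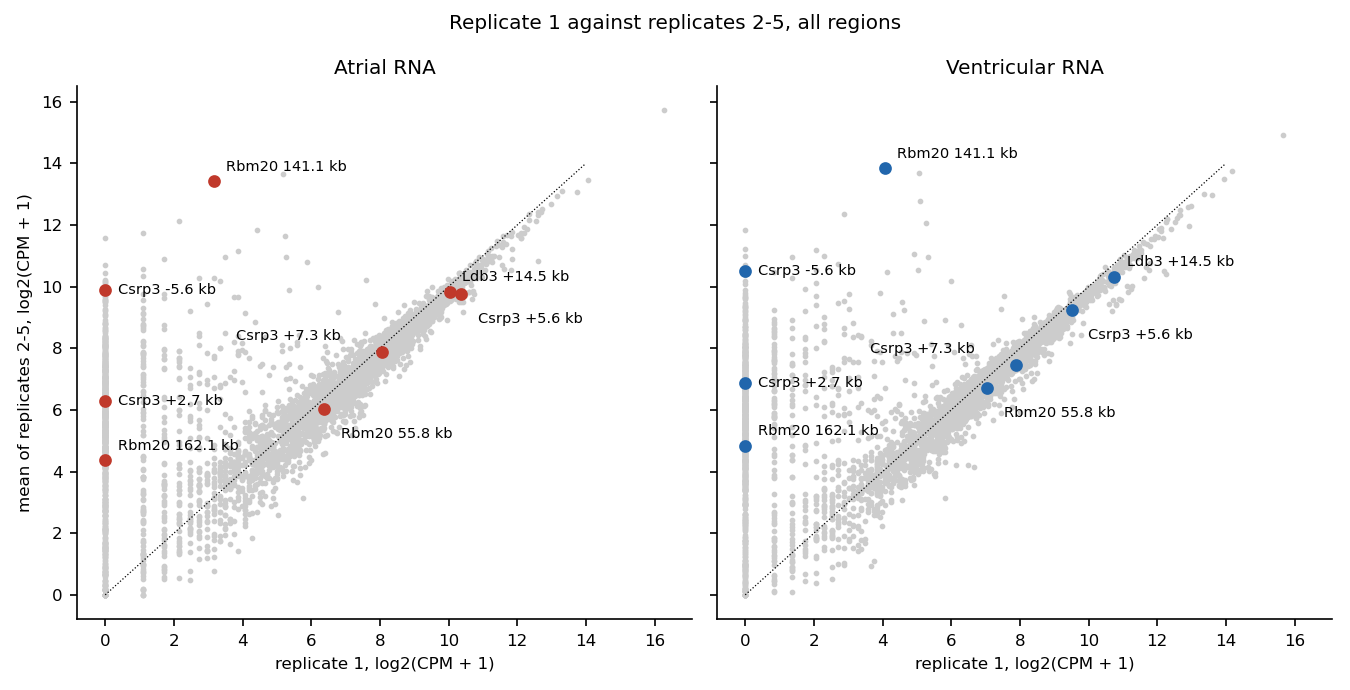
Each of the 3820 regions by its level in replicate 1 (x axis) and its mean level in replicates 2 to 5 (y axis), both as log2(CPM + 1), in atrial RNA and in ventricular RNA, with the 8 regions in colour. Regions on the dotted line are equal in both, and Rbm20 141.1 kb and the 3 regions at 0 on the x axis lie far above it.

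The comparison of atrium with ventricle asks which sequences drive RNA in one chamber more than in the other, the subject named in the series title. It sets RNA against RNA, and the DNA counts are no term of the fit. In these bulk tissues, fewer cells that make a reporter RNA and less of it per cell cannot be told apart. Of the 4 regions that passed the DNA filter, Csrp3 +5.6 kb was higher in atrium, Ldb3 was lower in atrium, and 2 were not called in the 5 and 5 libraries, while 30.9% of the 2601 regions were called, 15.8% higher and 15.1% lower. The median log2 atrium over ventricle of the 4 was -0.02, against 0.03 over all regions. In replicates 2 to 5 without the DNA filter, where all 8 could be tested, Csrp3 +5.6 kb was higher and Csrp3 -5.6 kb, Ldb3 and Rbm20 141.1 kb were lower in atrium. There 23.1% of 3812 regions were called, 12.8% higher and 10.3% lower, and the median log2 was -0.43 over the 8 and 0.02 over all. The chambers did not overlap in 6 of the 8 in replicates 2 to 5, as in 25.1% of all regions with a count. This fit was added after the data were seen.

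Csrp3 +5.6 kb averaged 951 ± 209 CPM in atrium and 629.6 ± 77.4 CPM in ventricle (SD, n = 5 each), and the chambers did not overlap. Its log2 atrium over ventricle was 0.59 ± 0.10 (SE; edgeR adjusted p = 4.28e-04). It was higher in atrium in all 5 same-numbered pairs, by 0.85 in replicate 1 and by 0.42 to 0.62 in replicates 2 to 5. The fit without replicate 1 gave 0.52 ± 0.10 (edgeR adjusted p = 0.00121), where 27.6% of the 2601 regions were called.

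Csrp3 +7.3 kb leaned the same way and did not pass. It averaged 240.3 ± 36.8 CPM in atrium and 187 ± 40.4 CPM in ventricle (SD, n = 5 each), with overlapping libraries and a log2 difference of 0.37 ± 0.16 (SE; edgeR adjusted p = 0.0967). The 5 pairs were all higher in atrium, by 0.17 to 0.64. With the replicate number as a block, in the replicates 2 to 5 fit without the DNA filter, it was called at 0.49 ± 0.17 (edgeR adjusted p = 0.0479), against 0.49 ± 0.18 (edgeR adjusted p = 0.0712) without the block. It was called in all 5 replicates as well when libraries were scaled on the regions tagged Neg in the table, at 0.55 (edgeR adjusted p = 0.0225).

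The other 2 Csrp3 regions leaned to ventricle. In replicates 2 to 5, Csrp3 -5.6 kb averaged 955 ± 115 CPM in atrium and 1472 ± 131 CPM in ventricle (SD, n = 4 each) with no overlap. Its log2 difference was -0.56 ± 0.10 (SE; edgeR adjusted p = 6.91e-04), and each of the 4 pairs was lower in atrium (log2 -0.74 to -0.47). Csrp3 +2.7 kb averaged 77.8 ± 5.19 CPM in atrium and 117 ± 31.7 CPM in ventricle (SD, n = 4 each) and was not called, at -0.52 ± 0.23 (SE; edgeR adjusted p = 0.115). Its chambers did not overlap in these libraries, and each of the 4 pairs was lower in atrium (log2 -1.02 to -0.32). Neither has a value in replicate 1, where both chambers had 0 counts, and in the fit of all 5 replicates without the DNA filter the SE of the -5.6 kb region was 1.43 (edgeR adjusted p = 0.915).

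Ratios between regions of the same library do not depend on how libraries are scaled. Over replicates 2 to 5, log2 of Csrp3 +5.6 kb over Csrp3 -5.6 kb was -0.14 ± 0.17 in atrium and -1.28 ± 0.14 in ventricle (SD, n = 4 each), a difference of 1.14. For +5.6 kb over +2.7 kb the difference was 1.06, for +7.3 kb over -5.6 kb 1.06 and for +7.3 kb over +2.7 kb 0.98. In these 4 pairs of regions the chambers did not overlap, and the exact two-sided permutation test gave p = 0.0286, the smallest that 4 against 4 libraries allow. Adjusted over the 9 pairs of regions within Csrp3 and within Rbm20 the value was 0.0643, which does not pass. With 4 against 4 libraries, an adjusted value under 0.05 would need most of the 9 pairs at the smallest p. The 4 pairs are made of the same 4 regions and are not separate results. Between +7.3 kb and +5.6 kb the difference was -0.08 (exact permutation p = 0.714), and between +2.7 kb and -5.6 kb it was 0.08 (exact permutation p = 0.829).

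The Ldb3 region was lower in atrium, at 939 ± 68.7 CPM against 1374 ± 217 CPM in ventricle (SD, n = 5 each), with no overlap of the libraries. The log2 difference was -0.54 ± 0.08 (SE; edgeR adjusted p = 9.71e-05), or 1.45-fold. All 5 pairs were lower in atrium, with a log2 of -0.73 in replicate 1 and -0.59 to -0.39 in the others. Without replicate 1 the fit gave -0.48 ± 0.09 (edgeR adjusted p = 6.86e-04).

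The 3 Rbm20 regions all had log2 differences below 0, and 1 was called in replicates 2 to 5. Rbm20 141.1 kb averaged 10912 ± 847 CPM in atrium and 14624 ± 123 CPM in ventricle in replicates 2 to 5 (SD, n = 4 each), with no overlap and a log2 difference of -0.36 ± 0.06 (SE; edgeR adjusted p = 3.23e-04). In the 5 and 5 libraries it was not called, at -0.42 ± 1.53 (edgeR adjusted p = 0.877), and with the replicate number as a block it was, at -0.43 ± 0.07 (edgeR adjusted p = 1.31e-04). The difference between the replicate 1 libraries was -0.98, from 7 atrial and 20 ventricular counts.

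Rbm20 55.8 kb averaged 67.7 ± 11.2 CPM in atrium and 109 ± 24.5 CPM in ventricle (SD, n = 5 each). All 5 pairs were lower in atrium (log2 -1.07 to -0.27), and the 4 and 4 libraries of replicates 2 to 5 did not overlap. It was called in the fit of all 5 replicates without the DNA filter, at -0.63 ± 0.18 (edgeR adjusted p = 0.0372, where 18.9% of regions were called, 10.5% higher and 8.34% lower), and not in replicates 2 to 5, at -0.62 ± 0.23 (edgeR adjusted p = 0.0691). Within replicates 2 to 5 it was called with scaling by library totals, at -0.68 (edgeR adjusted p = 0.0466), and with DESeq2, at -0.60 (DESeq2 adjusted p = 0.034). Rbm20 162.1 kb, at 19.6 ± 14.7 CPM in atrium and 27.6 ± 13.3 CPM in ventricle in replicates 2 to 5 (SD, n = 4 each), had overlapping chambers and -0.43 ± 0.57 (edgeR adjusted p = 0.639). Its same-numbered pairs went both ways.

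**Figure D4:**
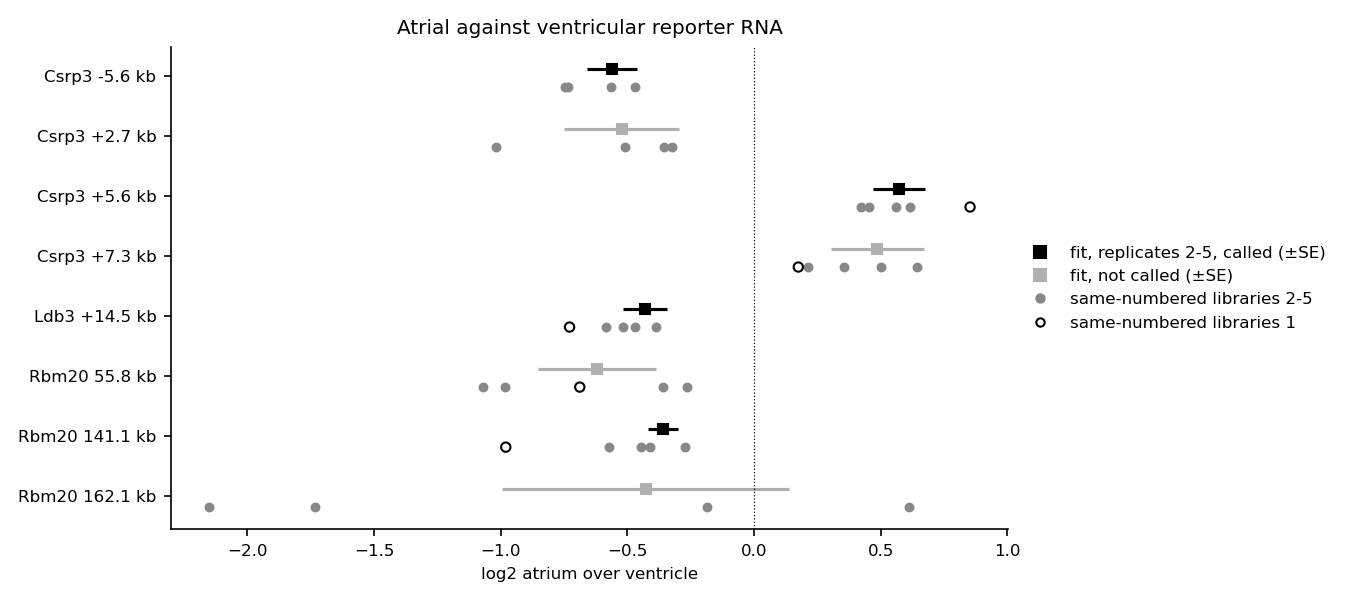
Log2 atrium over ventricle of the 8 regions. Squares are the fit of replicates 2 to 5 without the DNA filter with its SE, black where called and grey where not, and circles are same-numbered pairs of libraries, open for replicate 1. Csrp3 +5.6 kb and +7.3 kb lie above 0 and the other 6 regions have fitted values below 0, of which Csrp3 -5.6 kb, Ldb3 and Rbm20 141.1 kb are called.

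Regions with few or no DNA counts leaned to ventricle as a class, which bears on 4 of the 8. The median log2 atrium over ventricle of replicates 2 to 5 was -0.16 in the 488 regions with no DNA count, -0.18 in the 731 with a mean above 0 and under 10, and 0.16 in the 1177 with 300 or more. Csrp3 -5.6 kb, Csrp3 +2.7 kb, Rbm20 55.8 kb and Rbm20 162.1 kb belong to the first and second of these classes and lay below their class medians. In these first and second classes 3.89% and 5.95% were called higher in atrium, and 9.22% and 9.68% lower. Csrp3 +5.6 kb belongs to the class of 300 or more, of which 24.8% were called higher in atrium and 11.1% lower. Rbm20 141.1 kb and Csrp3 +7.3 kb belong to that of 10 to under 100 (7.14% higher, 8.78% lower). Ldb3 belongs to that of 100 to under 300 (12.6% higher, 12.6% lower). The part of DNA abundance in the chamber differences was not tested.

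The regions with the most similar levels across the 10 RNA libraries were found for the most counted tested region of each gene, by Pearson's r of log2(CPM + 1) against 2600 other tested regions. These values are descriptions, and all points share their libraries and depths. For Csrp3 +5.6 kb they were a region on chromosome 9 with no gene within 100 kb (r = 0.974), one inside Ntm (0.954) and one inside Tet1 (0.953). For the Ldb3 region they were regions inside Cers4 (0.962), 3561 bp from Map10 (0.960) and 17346 bp from Dlc1 (0.959). For Rbm20 141.1 kb, whose values are set by the gap between replicate 1 and the others, they were regions 225 bp from Zfp870 (0.9997), on chromosome 18 with no gene within 100 kb (0.9987) and 15418 bp from Tbca (0.9985). The median r over all tested regions was 0.107, 0.0667 and -0.209 for the 3.

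Other genes of the Z-disc and of titin splicing were read in the same fits. Of 31 other Z-disc genes, 10 had regions, and 14 regions were tested. Of these 14, 11 were higher than DNA in atrium, against 38.4% of all tested regions. In ventricle 11 were higher, against 43.4%, and 2 were lower. Between chambers 1 was higher in atrium, 2 were lower and 11 were not called, against 15.8% higher and 15.1% lower of all tested regions (median log2 0.11 over the 14 and 0.03 over all). Those named here were near Fhl2, a LIM protein of heart muscle, at 0.48 ± 0.095 (SE; edgeR adjusted p = 0.00109), and inside Actn2, the sarcomeric alpha-actinin, at -0.27 ± 0.09 (SE; edgeR adjusted p = 0.0259).

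Of 14 genes whose transcripts are targets of RBM20 splicing, some of which are also among the Z-disc genes, 10 had regions, and 11 regions were tested. Between chambers 1 was higher in atrium, 6 were lower and 4 were not called, against 15.8% higher and 15.1% lower of all tested regions, and the median log2 was -0.34 over the 11 and 0.03 over all. The 4 with the smallest p were inside Camk2d, a calcium-calmodulin kinase (-0.85 ± 0.09), near Ryr2, the calcium release channel (1.52 ± 0.21), inside Fhod3, a formin of the sarcomere (-0.34 ± 0.05), and inside Lmo7, a LIM-domain protein (-1.04 ± 0.17). Their edgeR adjusted p-values were at most 2.0e-04. Of 15 muscle splicing regulators, 6 had regions, and of 21 tested regions 5 were higher in atrium, 0 were lower by edgeR and 16 were not called (median log2 0.18), beside the same 15.8% and 15.1% of all tested regions. At an unadjusted p under 0.05 edgeR gave 7 higher and 1 lower, and DESeq2 called 6 and 1. Of the 5, 3 have the single gene Rbpms, an RNA-binding splicing regulator, as nearest, at 0.95 ± 0.08, 0.97 ± 0.16 and 1.23 ± 0.30, and 1 lies inside Mbnl2, a muscleblind splicing factor, at 0.80 ± 0.20. Over DNA, 7 of the 21 regions were higher and 5 lower in atrium, beside the same 38.4% higher of all tested regions. In ventricle 9 were higher and 7 lower, beside the same 43.4% higher.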

How the data were processed

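The deposited files hold whole-number counts per 400 bp region for 15 libraries, not normalized by the authors. Per the labels' protocols, libraries of RNA and of released AAV genomes were made with a UMI primer and PCR. Per the submitters' processing notes, cutadapt 2.5, Bowtie2 2.3.4.3 and mm10 were used. The sources used here do not give whether UMIs were collapsed. The series table and the library files held equal values. Groups and replicate numbers come from the labels. No replicate pair agreed within sampling noise (lowest chi-square per degree of freedom 17.7 in atrium, 12.7 in ventricle, 1.79 in DNA), and all were kept.

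Comparisons used edgeR 4.0.16 in R 4.3.3 (robust quasi-likelihood, TMM factors) over the 2601 regions averaging 10 or more DNA counts, adjusted by Benjamini-Hochberg over all of them and called at 0.05. SE is the log2 fold change over the root of F. Members and lists were chosen with earlier results of these data known. All 8 members were named, as the rule states for 20 or fewer, and lists give up to 4 regions with the smallest p. The region pair tests (pseudocount 0.5) and fits of replicates 2 to 5 without the DNA filter were added after the data were seen. Fits were tested on simulated data, where 47.5% of 1.5-fold and 82.9% of 2-fold differences between chambers were recovered. A difference of the size seen here can thus go uncalled. The simulation capped the spread between libraries and held no departure of replicate 1. Same-numbered atrial and ventricular libraries deviated together (r = 0.225 to 0.819), which meets the criterion of 0.1 for pairs, although replicates 3 to 5 correlated as well with another number. The only sequence used was RefSeq's table of promoter stretches. A result for 1 list gene is not reported here.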

Additional observations from a re-analysis of the deposited data

Results flagged for a closer look

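In 22 groups of 5 libraries (the 8 regions in atrial RNA, ventricular RNA and DNA, on log2(CPM + 1), without the 2 DNA groups at 0 throughout), 7 held a library far from the other 4, where chance gives about 1 in 20. That rate is for values with a normal spread, which a DNA group of counts of 0 and 1 does not have. All 7 were replicate 1. The share of all 3820 regions flagged in this way was not counted. Of the 488 regions with no DNA count, 441 were at 0 in atrial replicate 1 and 426 in ventricular replicate 1. Csrp3 +2.7 kb had 0 CPM in atrial replicate 1, against 71.3 to 83.0 CPM in the others, and 0 CPM in ventricular replicate 1, against 95.4 to 164 CPM. Csrp3 -5.6 kb had 0 CPM in atrial replicate 1, against 809 to 1087 CPM, 0 CPM in ventricular replicate 1, against 1356 to 1642 CPM, and 0 CPM in DNA replicate 1, against 0.391 to 0.432 CPM, which is 1 count in each of the others. Rbm20 141.1 kb had 7.97 CPM in atrial replicate 1, against 9955 to 12002 CPM, and 15.7 CPM in ventricular replicate 1, against 14509.7 to 14799 CPM.

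In 2 regions RNA was present although every DNA library was at 0. For Csrp3 +2.7 kb the bound over DNA was at least 328-fold in atrial and at least 491-fold in ventricular replicates 2 to 5, and for Rbm20 162.1 kb at least 85.0-fold and at least 119-fold.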

How the results depend on the processing

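Over all settings, 294 alternative log2 fold changes kept their direction and their side of the threshold, 10 gained and 2 lost a call, and none reversed. Of the alternative counts of called regions, 127 stayed within 1.5 times and 9 did not. With a mean of at least 100 DNA counts, 2 of the 8 regions were higher than DNA in atrium and 2 in ventricle, because fewer regions passed the filter. With scaling on the Neg regions, 2 were higher in atrium than ventricle. With the replicate block, in replicates 2 to 5 only or with a term for replicate 1, 2 were lower. In replicates 2 to 5 without the DNA filter, 2 were higher with the replicate block, with scaling on the Neg regions and with DESeq2 1.42.0. There Rbm20 55.8 kb was called lower with library totals and DESeq2. The cause was not tested. The calls of Csrp3 -5.6 kb and Rbm20 141.1 kb in that fit were lost when replicate 1 entered without a block (edgeR adjusted p = 0.915 and 0.953). Leaving out each library left 4 higher and 0 lower against DNA in each chamber, 1 higher and 1 lower between chambers, and 1 and 3 in replicates 2 to 5. DNA numbers do not pair with RNA numbers (r = -0.0319 to 0.0605), and the block against DNA changed no call of the 4. A distance of 20 kb kept all 8 regions. Scaling by library totals moved the median of all regions by 0.48 in atrium and 0.37 in ventricle over DNA, where splits were 1312 higher and 600 lower and 1371 and 732, against 999 and 945 and 1129 and 983. Scaling on the Neg regions moved it by 0.25, 0.05 and, between chambers, 0.18 (596 higher and 206 lower, against 412 higher). At 4 regions, 0 to 16 DNA counts limit every ratio to DNA.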
